A study of Mus musculus with 2 samples.

Results

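The mouse genes that hold down the embryonic globins, together with the RNA-binding proteins that mark the early programme, were described in the erythroid line G1E-ER4. The 9 genes were taken as a list by symbol: the transcription factor genes Bcl11a, Zbtb7a, Sox6 and Nfia, the nuclear receptor genes Nr2c1 and Nr2c2, and the RNA-binding protein genes Lin28b, Igf2bp1 and Igf2bp2. All 9 were found among the 43346 Ensembl gene rows of the tables. The study consists of 2 libraries of total RNA depleted of ribosomal RNA, labelled biological replicates 1 and 2 of a single group. G1E-ER4 is a Gata1-null line of C57BL/6J origin, labelled male, postnatal and age 0 day, in which a GATA1 fusion becomes active when estradiol binds it. In both cultures 17beta-estradiol had been present at 10 nM for 24 h, and 100 ng of RNA entered each library. Untreated cells were not analysed here, so levels, ratios between genes and transcript shares are given with the spread between the libraries, and no effect of estradiol could be measured. The line is immortalised, per the labels, and only RNA was measured, not protein.

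Red cells of the early mouse embryo use the embryonic beta-like genes Hbb-y and Hbb-bh1, which later red cells silence in favour of the adult genes Hbb-bs and Hbb-bt. BCL11A, ZBTB7A and SOX6 are repressors of the embryonic genes, and the orphan nuclear receptors TR2 (Nr2c1) and TR4 (Nr2c2) bind direct repeats near them and recruit corepressors. LIN28B acts on the other side of the switch: it blocks maturation of let-7 microRNAs, and IGF2BP1, IGF2BP2 and IGF2BP3 are RNA-binding proteins of early development whose messages let-7 represses.

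The libraries held 62081014 and 41051163 expected counts, in 16115 and 19353 genes with reads. TPM is a share of the library per unit of transcript length. Nuclear protein-coding genes held 14.1% of it in replicate 1 and 14.4% in replicate 2. A value multiplied by 7.09 in replicate 1 or 6.95 in replicate 2 is on a scale where those genes alone make the full sum. All 8 erythroid markers examined reached 1 TPM in both libraries. Of 29 markers of other blood, stromal and endothelial cells, 1 (Itga2b) reached 1 TPM in both and 8 had no counts. Together they summed to 3.58 and 5.15 TPM. The 6 myeloid markers among them summed to 0.11 TPM in replicate 1 and 1.54 in replicate 2. The 4 megakaryocyte markers, the highest of these groups, summed to 2.66 and 2.67. In bulk RNA, fewer cells that express a gene and less of its RNA per cell cannot be told apart.

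Mean levels of the 9 genes ran from 5.15 TPM for the nuclear receptor gene Nr2c2 down to 0.04 TPM for Igf2bp2. By the deposited posterior mean TPM Igf2bp2 was at 0.09 and 0.19, a mean above that of Sox6, at 0.07 and 0.10, though the values overlap, so the place of Igf2bp2 at the bottom depends on the estimate. Of the 9 genes, 5 reached 1 TPM in both libraries (Nr2c2, Igf2bp1, Bcl11a, Zbtb7a and Nr2c1), beside 36.3% of the 21461 nuclear protein-coding genes. Lin28b reached it in replicate 2 only, and Nfia, Sox6 and Igf2bp2 in neither. Even Nr2c2 lay under the median of the 7781 protein-coding genes that reached 1 TPM in both, which was 6.44 TPM in replicate 1 and 6.38 in replicate 2.

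**Figure D1:**
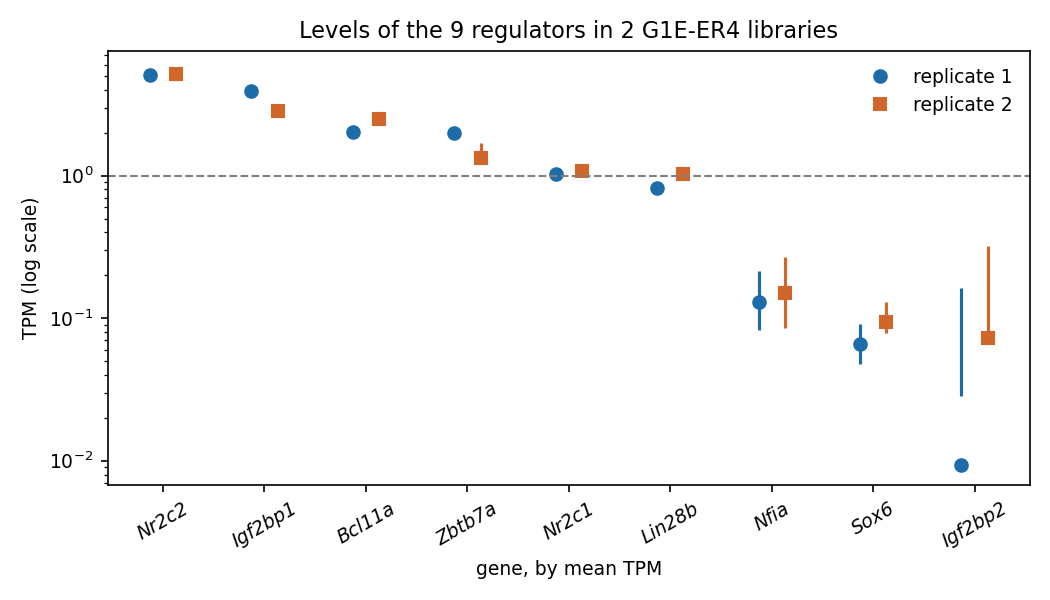
Deposited TPM of each gene (log axis) in replicate 1 (circles) and replicate 2 (squares), with vertical lines for the authors' credible bounds (level not given) and a dashed line at 1 TPM; values under 0.1 TPM were recomputed from counts. Nr2c2 sits at 5.11 and 5.18 TPM, Nfia and Sox6 lie between 0.07 and 0.15 TPM, and Igf2bp2 rests on 1 and 5 counts, with both values under their bounds.

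Bcl11a (chr11:24078056-24174123, plus strand, GRCm38) encodes a zinc-finger repressor also known for its role in B lymphocytes. It stood at 2.02 and 2.49 TPM, from 1853 and 1546 counts, a mean of 2.26 ± 0.33 (SD, n = 2). Replicate 2 was the higher one, and the gene ranked at percentiles 68.3 and 70.5 of the nuclear protein-coding genes. None of 11 lymphoid markers reached 1 TPM in either library: they summed to 0.15 and 0.10 TPM, and 5 of them had no counts.

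Zbtb7a (chr10:81135220-81152995, plus strand) encodes LRF, a repressor that acts on globin genes separately from BCL11A. Its level was 1.98 TPM in replicate 1 and 1.34 in replicate 2, from 2161 and 1053 counts, with a mean of 1.66 ± 0.45 (SD, n = 2). Here replicate 1 was the higher one. Bcl11a and Zbtb7a were nearly equal in replicate 1, where their credible bounds coincide at 1.91 to 2.15 TPM, and Bcl11a was the higher in replicate 2.

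Sox6 (chr7:115470872-116038796, minus strand) encodes an HMG-box factor that binds with BCL11A at the beta-globin locus. It was listed at 0.07 and 0.09 TPM, from 78 and 86 counts, a mean of 0.08 ± 0.01 (SD, n = 2). Nfia (chr4:97772734-98118874, plus strand), a nuclear factor I gene, was listed at 0.13 and 0.15 TPM, from 62 and 31 counts, a mean of 0.14 ± 0.01 (SD, n = 2). Both were detected in both libraries at low levels. By whole-gene TPM, Bcl11a exceeded Sox6 28.5-fold (log2 4.83 ± 0.14, SD). The fold is smaller with only the Bcl11a transcripts annotated as coding, at 1.22 and 1.59 TPM.

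Nr2c2 (chr6:92091390-92174294, plus strand) encodes TR4. Its level was 5.11 and 5.18 TPM, from 6912 and 4854 counts, a mean of 5.15 ± 0.05 (SD, n = 2), at percentiles 79.0 and 79.2. On the scale of nuclear protein-coding genes the mean is 36.1 ± 0.18 (SD, n = 2). Its 3' end overlaps Mrps25, a mitochondrial ribosomal protein gene on the minus strand at 9.64 and 8.84 TPM: the transcripts counted share 3533 exon bases, and the strand setting of the counting is not given. The deposited posterior SD of the count, which is above 0 where reads could belong to another gene, was 0 in both libraries for Nr2c2 and for Mrps25, so no read of either was shared in the authors' estimate. Over all pairs of counted coding genes that share at least 500 exon bases, it was 0 in replicate 1 for both genes in 91 of 118 pairs on opposite strands and in 0 of 39 pairs on the same strand.

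Nr2c1 (chr10:94148023-94197211, plus strand) encodes TR2, the partner of TR4. It stood at 1.03 and 1.07 TPM, from 714 and 509 counts, a mean of 1.05 ± 0.03 (SD, n = 2). The 2 receptors were the steadiest of the 9 genes between libraries, and Nr2c2 exceeded Nr2c1 by 4.96-fold in replicate 1 and 4.84-fold in replicate 2 (log2 2.29 ± 0.02, SD).

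Among the RNA-binding protein genes, Igf2bp1 (chr11:95957163-96005940, minus strand) led with 3.92 and 2.85 TPM, from 5238 and 3057 counts, a mean of 3.39 ± 0.76 (SD, n = 2). That put it second of the 9 genes, above Bcl11a in both libraries. Lin28b (chr10:45376620-45486395, minus strand) was present at 0.82 and 1.02 TPM, from 875 and 755 counts, a mean of 0.92 ± 0.14 (SD, n = 2). By whole-gene TPM, Bcl11a exceeded Lin28b by a nearly constant 2.45-fold (log2 1.30 and 1.29 in the 2 libraries). The gap is smaller on transcripts annotated as coding: Bcl11a stood at 1.22 and 1.59 TPM there, and Lin28b at 0.82 and 1.02. Igf2bp2 (chr16:22059009-22163299, minus strand) had 1 count in replicate 1 and 5 in replicate 2, listed as 0.01 and 0.07 TPM, and all of them lay on transcripts annotated as noncoding.

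Matches to the let-7 seed were counted in the 3' UTRs. The mature let-7a-5p of the mouse (RefSeq, GRCm38.p6) is shown because its seed, bases 2 to 8, in capitals, defines the sites searched; the sites follow, each with the complement of the seed, CTACCTC, in capitals and the 15 bases before it.
mmu-let-7a-5p: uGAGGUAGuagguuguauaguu
Lin28b site, chr10:45381023-45381044: acccgggcgggaagtCTACCTC
Lin28b site, chr10:45378649-45378670: tatacttgttagtaaCTACCTC
Lin28b site, chr10:45378477-45378498: gtttacagcacatggCTACCTC
Lin28b site, chr10:45377061-45377082: aaatgatggcaccgaCTACCTC
Igf2bp1 site, chr11:95961779-95961800: gctgtgcgaagtaaaCTACCTC
Igf2bp1 site, chr11:95959358-95959379: cagcagtgctattaaCTACCTC
Igf2bp1 site, chr11:95958764-95958785: gtataaatggatgaaCTACCTC
Igf2bp1 site, chr11:95958141-95958162: acttttggttttaatCTACCTC
Lin28b-201 carries 4 matches in 4445 bases of 3' UTR and Igf2bp1-201 carries 4 in 6337 bases (GENCODE M21 transcripts, sense strand). Of 1091 other 3' UTRs at least as long as that of Lin28b, cut to its length, 24.7% hold the 7 bases at least once and 2 hold them 4 times or more. For the length of Igf2bp1 the share is 36.1% of 371, and 0 hold 4. Lin28a-201 holds 2 matches, where 16.1% of other 3' UTRs cut to its length hold any. Igf2bp2-201, Igf2bp3-201 and Nfia-202 hold 1 each, at lengths where 10.7%, 12.6% and 40% of the others hold any, while Bcl11a-202, Zbtb7a-201, Sox6-201, Nr2c1-203 and Nr2c2-201 hold none. The longest coding transcript of each gene was searched, whether or not it had reads. Igf2bp2-201, Nfia-202 and Sox6-201 had 0 counts in both libraries, and Igf2bp3-201 differs in length from the transcript counted. A match describes letters and not a site in use, and let-7 itself could not be read from these tables: all 10 let-7 precursor rows have an effective length of 0 and 0 counts.

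By mean TPM the order was Nr2c2, Igf2bp1, Bcl11a, Zbtb7a, Nr2c1, Lin28b, Nfia, Sox6 and Igf2bp2. The values of 35 of the 36 pairs did not overlap between libraries, where 87.5% of all pairs of nuclear protein-coding genes with a read do not. Sox6 and Igf2bp2 were the pair that overlapped. Among the 8 neighbouring pairs 7 were separate, but the step from Bcl11a to Zbtb7a, log2 0.46 ± 0.61 (SD), was smaller than its spread, so these neighbours do not differ beyond it. The step from Nr2c1 to Lin28b was also narrow, log2 0.20 ± 0.18 (SD). Nr2c2 over Igf2bp1 was 1.54-fold (log2 0.62 ± 0.34, SD) and Igf2bp1 over Bcl11a was 1.49-fold (log2 0.58 ± 0.54, SD).

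Each gene was next set beside its paralogues, to show which member of a family these cells used. Of 13 pairs, 11 had a ratio of the same sign in both libraries with a mean above its SD, beside 94.2% of all pairs of nuclear protein-coding genes with reads in both. The listed gene was the higher one in 7 of the 11 and the lower one in 4. In 5 of the 11 the other gene had no counts in at least 1 library, and a floor of 3 counts stood in for the 0 there.

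Bcl11b, the paralogue known from T cells, had 0 and 1 counts beside 1853 and 1546 for Bcl11a. Zbtb7b, which encodes the T-lineage factor ThPOK, was as high as Zbtb7a: 1.73 and 1.92 TPM, a log2 ratio of Zbtb7a over Zbtb7b of -0.16 ± 0.50 (SD), with the libraries on opposite sides. Zbtb7c had no counts, and Zbtb7a was at least 199-fold higher. For Sox6, the other SoxD genes were lower or near the floor. Sox13 had no counts, which puts Sox6 at least 7.99-fold higher, and Sox5 had 4 and 14 counts, with no stable ratio (log2 2.10 ± 2.47, SD).

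In the nuclear factor I family Nfia was not the leading gene. Nfic stood at 0.16 and 0.23 TPM and Nfix at 0.34 and 0.18, both above Nfia in each library, and Nfib had 0 and 2 counts. The log2 ratio of Nfia to Nfic was -0.46 ± 0.22 and to Nfix -0.83 ± 0.79 (SD); no gene of the family reached 1 TPM.

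Of the LIN28 pair, Lin28b was the form expressed: Lin28a, the form known from pluripotent cells, had 0 and 4 counts beside 875 and 755. Igf2bp3 stood between its relatives at 0.98 and 0.79 TPM, from 833 and 463 counts. Igf2bp1 exceeded it 3.80-fold (log2 1.93 ± 0.11, SD), and Igf2bp2 lay below both in each library. The family order was thus Igf2bp1, Igf2bp3, Igf2bp2 in replicate 1 and again in replicate 2.

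**Figure D2:**
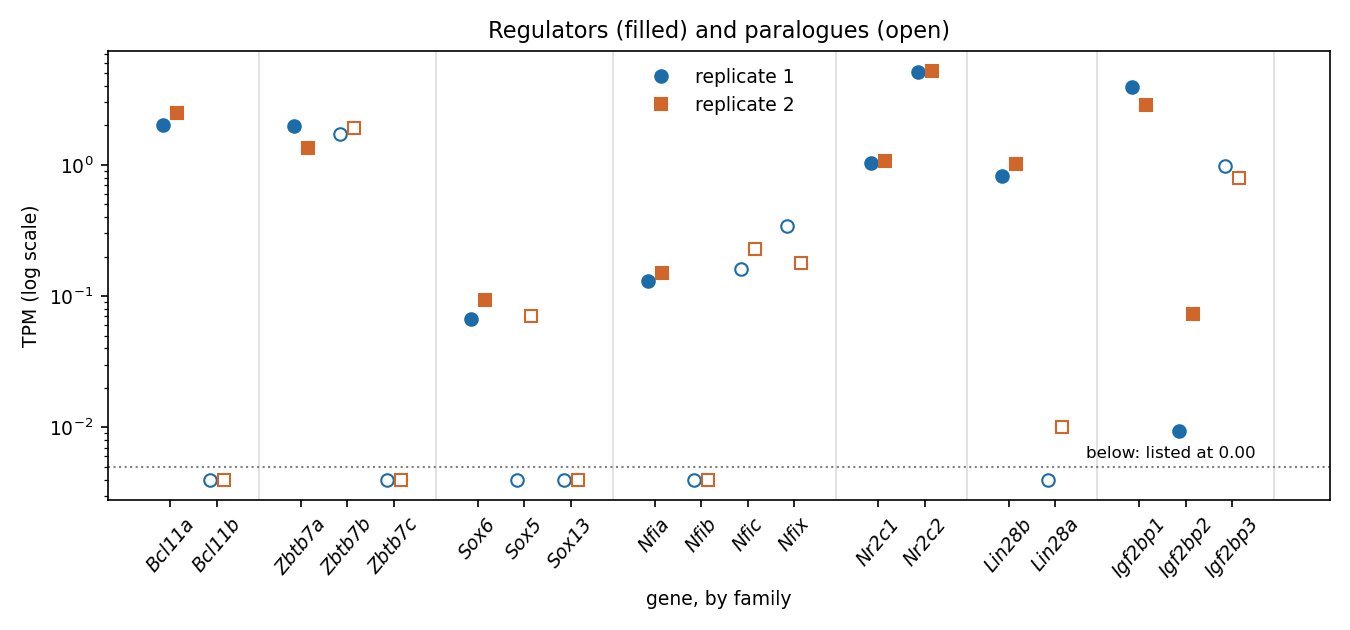
Deposited TPM (log axis) of the 9 genes (filled) and their 10 paralogues (open) by family, in replicate 1 (circles) and replicate 2 (squares). Values of the 9 genes under 0.1 TPM were recomputed from counts. Points under the dotted line are listed at 0.00. Zbtb7a and Zbtb7b overlap, Nfia lies under Nfic and Nfix, and Bcl11b, Zbtb7c, Sox13 and Nfib are listed at 0.00 in both libraries.

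The transcript tables split each gene's TPM among its annotated transcripts. In 6 of the 8 genes with more than 1 transcript the same transcript led by share of TPM in both libraries. The exceptions were Sox6 and Igf2bp2, the genes with the lowest levels. The share was 89.1% over 5976 protein-coding genes with more than 1 transcript and a mean of 1 TPM or more. Nfia, Sox6 and Igf2bp2 lie under that mean, and the other genes of the 8 all kept their leading transcript. By share of counts the number was also 6, with Nfia and Igf2bp2 as the exceptions.

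Bcl11a was led by a transcript annotated as noncoding. Bcl11a-205, annotated as a retained intron, begins at the 5' end of the gene, includes exon 2 and runs on through 5256 bases of intron 2 (chr11:24085651-24090906). It held 39.5% and 35.8% of the gene's TPM, from 929 and 719 of its counts, which is 50.1% and 46.5% of the reads. The posterior SD of those counts was 5.99 and 5.68. The 15 bases on each side of the end of exon 2 are shown because they separate the spliced from the unspliced form: lower case is exon 2, and capitals are exon 3 in Bcl11a-202 and intron 2, opening with the splice donor GT, in Bcl11a-205 (GENCODE M21 transcripts, GRCm38, plus strand).
Bcl11a-202, exon 2 to exon 3: aggaacacatagcagATAAACTTCTGCACT
Bcl11a-205, exon 2 into intron 2: aggaacacatagcagGTAAATGAGAAGCGA
Transcripts annotated as coding made up 60.5% and 64.2% of the TPM of Bcl11a, a mean of 62.4% ± 2.6 (SD, n = 2). The noncoding part, 37.6% on average, compares with a median of 17.3% over 4878 protein-coding genes at a mean of 1 TPM that have a noncoding transcript, and ranks at percentile 74.8 among them. By counts the coding part was 51.7%, where the same genes had a median of 92.2%. Apart from Igf2bp2, no other of the 9 genes has a retained-intron transcript in the tables. The libraries hold total RNA, so unspliced precursor and a finished retained-intron RNA cannot be told apart.

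Of the coding forms of Bcl11a the longest led. Bcl11a-202, the XL form with 835 codons, held 27.5% and 28.8% of the TPM, from 659 and 589 counts. Bcl11a-201, the L form of 773 codons, held 10.4% and 13.8%, and the short Bcl11a-204, of 191 codons, held 16.8% and 21.1%. XL and L part within exon 4, after the lower-case bases below; the capitals are exon 4 read on in XL and the last exon in L.
Bcl11a-202 (XL): gacgcagcgacacttGTGAGTACTGTGGGA
Bcl11a-201 (L): gacgcagcgacacttGTCCTTCACACACCC
Bcl11a-203, of 243 codons, held 5.88% in replicate 1 and 0.50% in replicate 2, on 51.8 and 3.74 counts. Counting coding transcripts only, Bcl11a stood at 1.22 and 1.59 TPM and Zbtb7a at 1.97 and 1.35, so that Zbtb7a had the higher mean and the values overlapped.

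In Igf2bp1 the noncoding share lay on short forms with few reads. Igf2bp1-201, the coding form with 577 codons, held 77.7% and 91.6% of the TPM but 97.6% and 99.2% of the counts. The short noncoding forms Igf2bp1-202 and Igf2bp1-203 held 11.1% each in replicate 1 and 3.45% and 4.99% in replicate 2, on 43.7 and 81 counts and on 6.6 and 18 counts. Taken alone, Igf2bp1-201 was at 3.05 and 2.61 TPM, closer between libraries than the gene as a whole.

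Both receptors were made up of 1 main coding form. Nr2c2-201 (596 codons) held 86.2% and 87.3% of its gene's TPM, and Nr2c1-203 (590 codons) held 88.5% and 87.1%. Zbtb7a-201 (569 codons) held a mean of 92.5% ± 3.5 (SD, n = 2); all 6 transcripts of Zbtb7a in the tables are annotated as coding. Lin28b-201 (271 codons) is the only transcript of Lin28b in the tables.

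The transcript shares of the low genes rest on few reads. Nfia-208, a short model of 851 bases, held 62.2% and 55.4% of the TPM of Nfia on 10.4 and 7.6 counts, while Nfia-204, of 8913 bases, held 14.6% and 3.53% on 32.9 and 6.66 counts. Dividing all reads of Nfia by the effective length of its longest transcript gave 0.032 and 0.023 TPM in place of 0.13 and 0.15. The same division gave 0.047 and 0.075 TPM for Sox6, which then lay above Nfia in both libraries: the order of Nfia and Sox6 depends on which transcripts the reads of Nfia are assigned to. Higher genes moved too. Nr2c1, at 0.986 and 1.018 TPM, fell under 1 TPM in replicate 1 and overlapped Lin28b, at 0.820 and 1.024. Bcl11a, at 1.56 and 1.88 TPM, overlapped Zbtb7a, at 1.84 and 1.29. In Sox6 the leading form by share of TPM was Sox6-203 in replicate 1, on 14.8 counts, and Sox6-202 in replicate 2, on 54.3 counts. By counts Sox6-202 led in both libraries, with 32.45 in replicate 1. For Nfia the leading form by counts was Nfia-204 in replicate 1 and Nfia-205 in replicate 2.

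**Figure D3:**
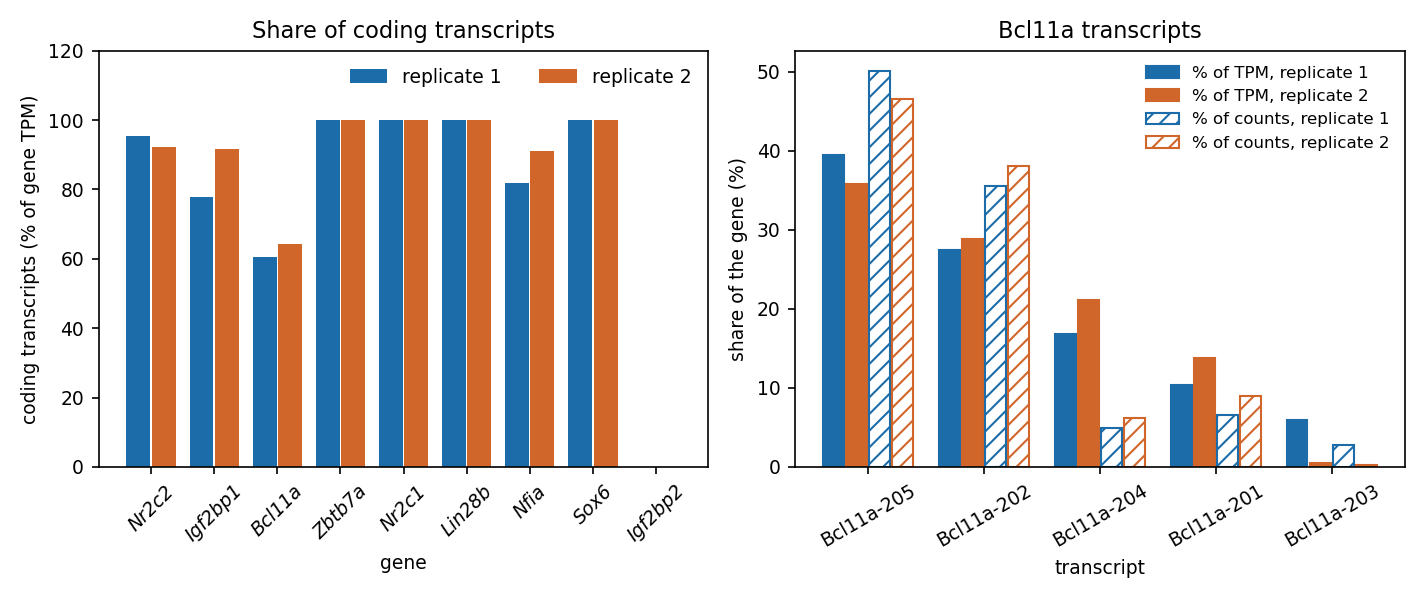
Left, percent of each gene's TPM on coding transcripts in replicate 1 (blue) and replicate 2 (orange); right, percent of the TPM (solid) and of the counts (hatched) of Bcl11a on each of its transcripts with reads. Bcl11a stands lowest of the genes above 1 TPM, at 60.5% and 64.2% coding, Igf2bp2 has no coding share, and the retained-intron form Bcl11a-205 leads on both scales.

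The libraries were compared with counts scaled by TMM, a normalisation to the bulk of genes. Differences of 2-fold or more were found in 0 of the 6 regulators that averaged at least 100 counts, beside 2.05% of 9777 genes. The largest difference was that of Zbtb7a, 1.39-fold lower in replicate 2 (log2 -0.47). Lin28b and Bcl11a were higher in replicate 2, by log2 0.35 and 0.30, and Igf2bp1 was lower, by log2 -0.21. Nr2c1 and Nr2c2 differed by log2 0.08 and 0.06. Nfia, Sox6 and Igf2bp2 had too few counts for this comparison. With DESeq2 size factors the count was also 0, and no p-value can be given for a comparison of 2 single libraries.

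**Figure D4:**
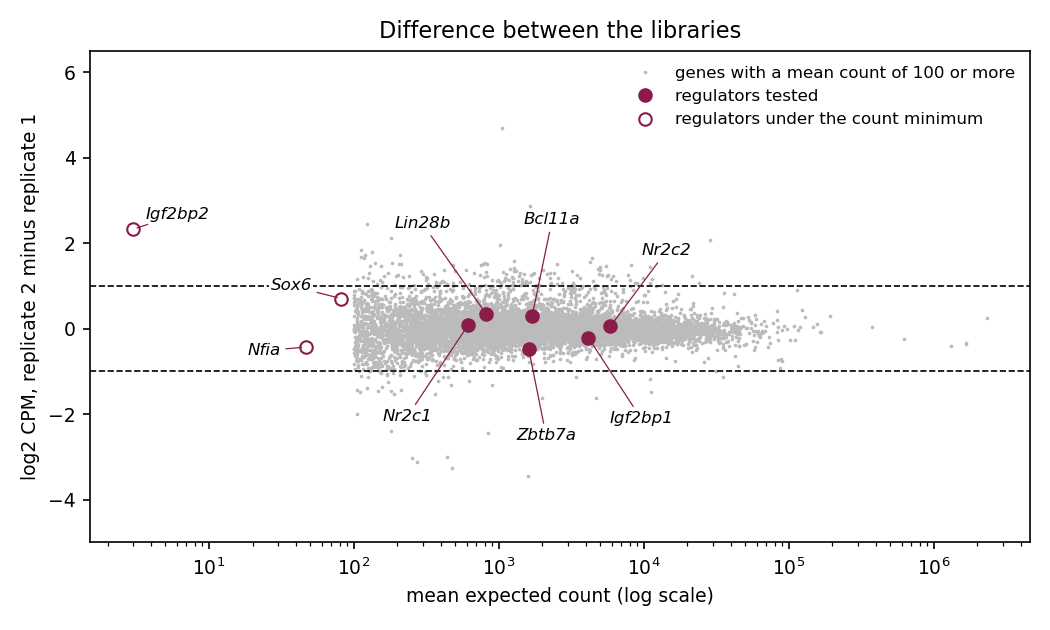
Log2 CPM of replicate 2 minus replicate 1 against the mean expected count (log axis), with grey points for the 9777 genes compared, filled points for the 6 regulators compared, open points for the 3 under the count minimum, and dashed lines at a 2-fold difference. The 6 filled points lie between -0.47 and 0.35, inside the lines.

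The genes on which these regulators act were measured in the same libraries. Hbb-y stood at 0.12 and 0.29 TPM, from 11 and 18 counts, and Hbb-bh1 at 0.52 and 0.91 TPM, from 44 and 51 counts. The embryonic alpha-like gene Hba-x had no counts. Against them, the adult gene Hbb-bs stood at 985 and 1629 TPM, Hbb-bt at 187 and 242, Hba-a1 at 261 and 320, and Hba-a2 at 930 and 1106. Embryonic beta-like RNA was thus 0.0546% and 0.0641% of all beta-like RNA, a mean of 0.0593% ± 0.0067 (SD, n = 2). The adult copies are close in sequence, so the split of reads among them is uncertain.

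The 250 bases upstream of an embryonic and an adult beta-like gene are shown so that their letters can be set side by side for the motifs of these repressors (RefSeq, GRCm38.p6, minus strand of chromosome 7). Capitals mark TGACCA, the motif bound by BCL11A, and TGACCT, the complement of AGGTCA, the half-site of TR2 and TR4; both strands were searched.
Hbb-y, chr7:103853208-103853457: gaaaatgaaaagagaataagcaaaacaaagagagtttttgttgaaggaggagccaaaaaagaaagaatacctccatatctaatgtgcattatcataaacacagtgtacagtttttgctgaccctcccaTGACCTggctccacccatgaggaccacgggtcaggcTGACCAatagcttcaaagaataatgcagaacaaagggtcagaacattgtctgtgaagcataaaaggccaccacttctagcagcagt
Hbb-bs, chr7:103827929-103828178: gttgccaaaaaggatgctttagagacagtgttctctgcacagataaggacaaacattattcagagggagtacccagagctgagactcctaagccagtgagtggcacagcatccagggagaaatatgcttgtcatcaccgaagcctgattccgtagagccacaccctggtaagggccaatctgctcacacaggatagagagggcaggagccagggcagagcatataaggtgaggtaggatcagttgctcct
Hbb-y holds 1 TGACCA, which begins 86 bases upstream of the start and overlaps a CCAAT box that begins 83 bases upstream, and 1 AGGTCA on the opposite strand at 122 bases. Neither motif occurs in the windows of Hbb-bs and Hbb-bt, and Hba-x holds 1 TGACCA at 40 bases. The other embryonic beta-like gene, Hbb-bh1, was not searched. Of all 32851 promoter windows of this length, 11.4% hold TGACCA and 14.0% hold AGGTCA on either strand, so a match alone is common.

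By the medians of their lists, other genes of the pathway stood above the 9, whose medians were 1.03 and 1.07 TPM. The ranges overlapped. Of 12 other regulators of globin switching, 11 reached 1 TPM in both libraries, with medians of 11.5 and 11.6 TPM. Gata1 was highest at 60.1 and 73.2 TPM, and its row cannot separate the introduced fusion from the disrupted gene. Zfpm1, which encodes its cofactor FOG1, followed at 43.3 and 43.5, and Klf1, whose product activates Hbb-bs and Bcl11a, at 28.1 and 27.6. At the low end, Myb stood at 2.13 and 2.40 TPM, and Nr2f2, the gene of COUP-TFII, had 0 and 7 counts.

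The corepressor genes examined were higher than the 9 genes by their median. Of 22, 21 reached 1 TPM in both libraries, with medians of 7.64 and 8.80 TPM against 1.03 and 1.07 for the 9 regulators. Mbd2, the methyl-binding subunit of NuRD, stood at 45.5 and 40.0 TPM, Ncor1 at 40.8 and 37.4, and Trim28 at 26.1 and 31.4. Gatad2b, another gene of NuRD, was low at 2.30 and 1.75.

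Of 14 genes of the let-7 and LIN28 axis, 9 reached 1 TPM in both libraries, with medians of 2.74 and 2.42 TPM. The highest were Dis3l2, the nuclease of uridylated let-7 precursors, at 11.8 and 12.0 TPM, the uridylyl transferase gene Tut7 at 12.1 and 11.2, and Dgcr8, a subunit of the Microprocessor, at 7.24 and 6.44. At the other end, the fetal growth gene Igf2 had no counts. Mycn and H19, with equal means at the next level, had 0 and 2 counts and 0 and 3 counts.

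**Figure D5:**
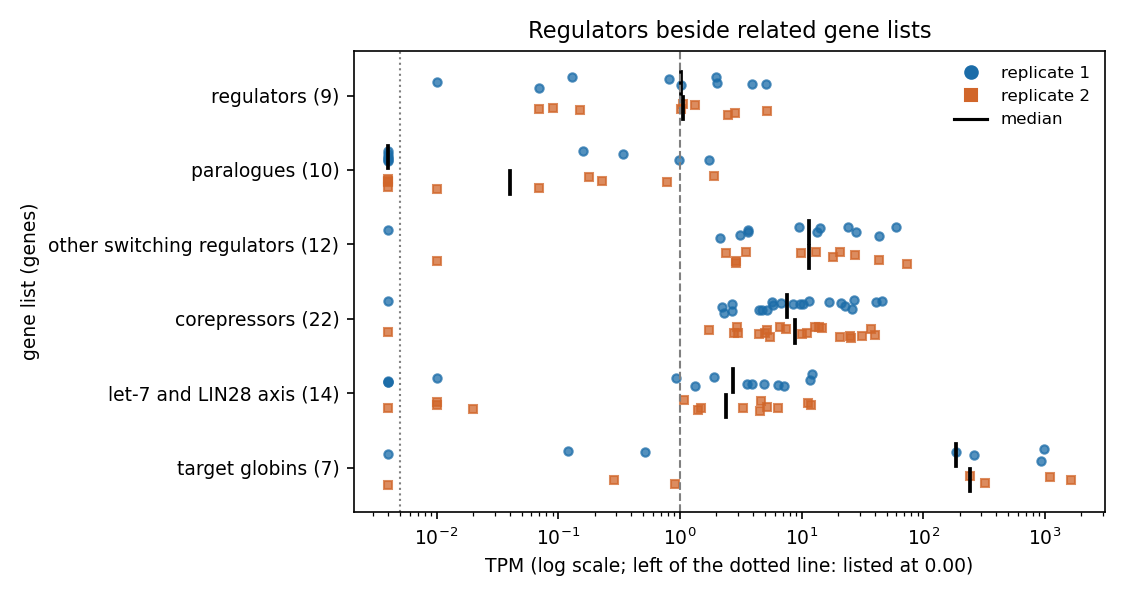
Deposited TPM (log axis) of the genes of each list in replicate 1 (circles, upper row) and replicate 2 (squares, lower row), with black lines for medians, a dashed line at 1 TPM and a dotted line left of which values are listed at 0.00. The regulators have medians of 1.03 and 1.07 TPM, the corepressors 7.64 and 8.80, and the paralogues 0.00 and 0.04, with 1 of 10 at 1 TPM in both libraries.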

How the data were processed

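For each of 2 libraries the authors deposited a gene table and a transcript table. Per the file headers, expected counts were deposited beside TPM and FPKM, and the deposited percent of a gene's TPM gave each transcript's share. The authors' credible bounds of TPM served as a signal range (level not given in the sources used here), and the deposited posterior SD of the count as a score of shared reads. The assembly was mm10 with GENCODE M4 annotation, per the authors' deposited lists; aligner, quantifier and strand setting are not given in the sources used here.

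Names and coordinates came from GENCODE M21 on the same assembly: 42462 of 43346 Ensembl rows matched. The 26345 rows that name no gene held 18 and 5 counts (2.9e-05% and 1.22e-05%) and stayed out. Values under 0.1 TPM were recomputed from count and effective length. Rounded counts were scaled by TMM (edgeR 4.0.16, prior count 0.5). A floor of 3 counts stood in for a count of 0 in ratios; it covers counting error only, because amplified copies of a molecule were not marked. A ratio was called where both libraries had its sign and the mean log2 exceeded the SD. The 2-fold comparison of the libraries was tested on simulated counts with 200 changed genes and sampling noise only. Counting of pairs over all genes was checked against a direct count on random values, and the floor was not tested. The libraries differed beyond sampling noise (chi-square 75.8 per degree of freedom over 12223 genes). With 1 group there was no test between conditions, and likeness of pattern between genes was not measured.

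The genes, lists and tests were chosen with earlier results of these data known. The text names all 9 genes, their paralogues, the globins and, of each other list, the 3 highest and 2 lowest by mean TPM; Itga2b and Mrps25 were named after their values were seen. A gene that this rule takes is not reported here. Alternatives were posterior mean TPM, FPKM, other thresholds, DESeq2 1.42.0 size factors, shares of counts and leaving out a library. Rescaling of TPM over nuclear protein-coding genes was a further alternative. The alternatives of 2-decimal TPM, longest-transcript lengths and coding transcripts only were added after the data were seen.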

Additional observations from a re-analysis of the deposited data

How the results depend on the processing

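The low genes rest on few reads: Nfia, Sox6 and Igf2bp2 had 86 counts or fewer in each library. With a threshold of 5 TPM 1 gene (Nr2c2) was called expressed in place of 5, and leaving out a library gave 5 to 6, with Lin28b added without replicate 1. The number was also 6 with a threshold of 0.5 TPM and with FPKM of 1 or more. TPM rescaled over nuclear protein-coding genes gave 6 as well, with Lin28b at 5.82 and 7.09. Without the filter on low counts 1 gene, Igf2bp2, differed by 2-fold between libraries. The median coding share of Nr2c2, Igf2bp1 and Bcl11a was 84.7% of TPM and 98.4% of expected counts, and 77.7% to 91.6% with 1 library left out. Without either library all 13 paralogue pairs had a sign, since 1 library gives no spread; the genes of 5 related lists at 1 TPM numbered 46 to 47. Of the alternatives for these results 30 stayed the same (counts within 1.5 times, values within 1 SD), 3 moved and 0 reversed; of 68 for single genes and lists 57 stayed, 11 moved and 0 reversed, among them Nfia at 0.028 TPM by its longest transcript and Igf2bp2 at 0.14 by posterior mean TPM. No paired analysis was possible because there is 1 group.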
